A study of Mus musculus with 6 samples.

Results

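Ly6Chi F4/80lo cells are the splenic fraction with high surface Ly6C and little F4/80, a gate that is mostly used for inflammatory monocytes. Their RNA was compared between mice with T cell acute lymphoblastic leukemia (T-ALL) and normal mice, which uses 2 of the 6 libraries of the series. The T-ALL library came from the spleen at day 15 after GFP+ leukemia cells (1000000 per mouse) had been given without irradiation, a model in which mice survived 35 to 40 days. The normal library came from day 0. All mice were C57BL/6 and 6 to 8 weeks old. The labels call the sorted cells macrophages and do not say whether mice were pooled. The other 4 libraries hold Ly6Clo F4/80lo and Ly6Clo F4/80hi cells in T-ALL and in normal spleen.

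Values are FPKM, fragment counts divided by transcript length and by library depth, so levels can be compared between genes. A difference is given as the log2 ratio of FPKM + 1, T-ALL over normal, and a gene missing from a file was set to 0. A gene was kept if either library had it at 5 FPKM or more, which left 8371 of the 14900 genes listed in either. A gene was counted as higher or lower from 2-fold. With 1 library on each side there is no replicate check: no test was made, and each difference is one between these 2 libraries. The files listed 14225 genes in T-ALL and 14303 in normal, with FPKM sums of 583298 and 514113. The spacing of low values, which was only partly that of whole fragments, puts the depth at roughly between 6440000 and 8080000 fragments in T-ALL and between 7240000 and 8980000 fragments in normal. At the lower depths, counting error alone gives a gene of 5 FPKM and 1 kb a 95% interval of 3.40 to 7.02 FPKM in T-ALL and of 3.48 to 6.88 FPKM in normal (exact Poisson).

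Classical monocytes leave the bone marrow through the chemokine receptor Ccr2, carry Ly6C, and can become macrophages or dendritic cells in inflamed tissue. In mice with tumours or leukemia the spleen often becomes a site of blood cell formation, where immature monocytes and granulocytes are made. Ly6C is not limited to monocytes: neutrophils, plasma cells, plasmacytoid dendritic cells and some T and natural killer cells also carry it, so that a gate on Ly6C and F4/80 can hold several of these.

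In T-ALL, Ly6Chi F4/80lo cells had more RNA of granule proteins, of dividing cells and of antibody secretion, and less of class II antigen presentation, lipid transport, cytokine receptors and natural killer genes. The count was 629 genes at least 2-fold higher (7.51% of 8371) and 373 at least 2-fold lower (4.46%). Of these, 77 were at least 4-fold higher and 16 at least 4-fold lower. The median over all 8371 genes was -0.05. The share of higher among called genes was set by the scaling: when each library was scaled to the same FPKM sum, the median was -0.22 and the split became 498 higher and 689 lower.

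**Figure D1:**
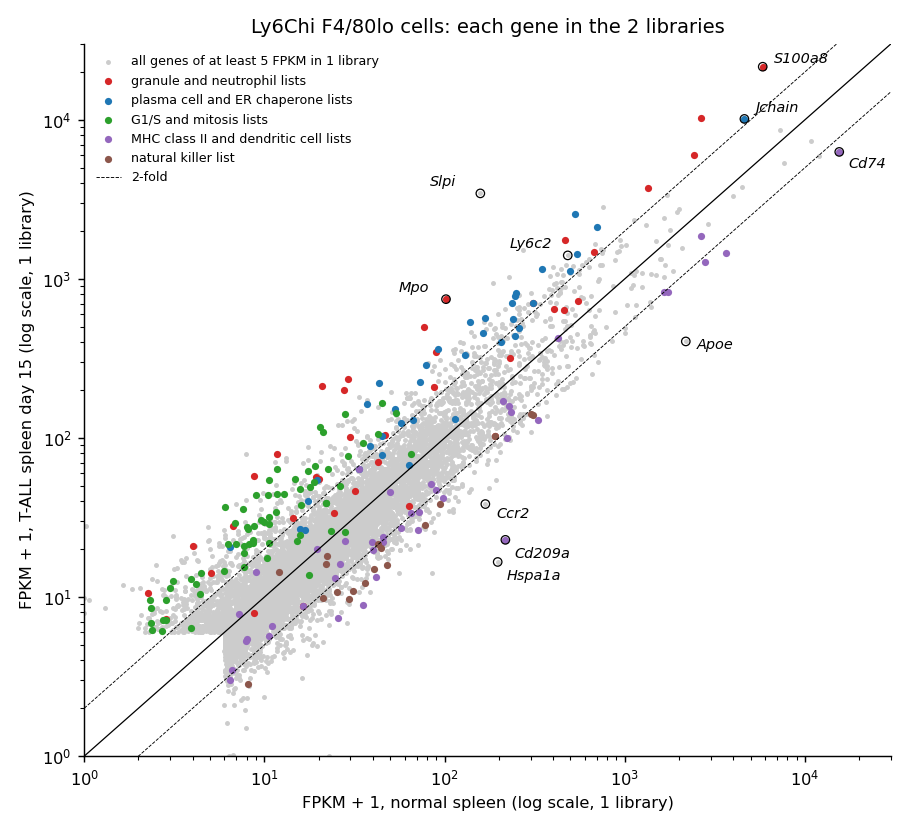
FPKM + 1 of each gene in the T-ALL library (vertical, log scale) against the normal library (horizontal, log scale), 1 library each, with dashed lines at 2-fold. Granule, plasma cell and cell cycle genes lie mostly above the upper dashed line, and class II, dendritic cell and natural killer genes mostly below the diagonal; Slpi stands at 3449 FPKM in T-ALL and 157 FPKM in normal.

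The sort antigens and the pan-myeloid genes did not move together. Ly6c2, which encodes the sorted antigen, had 1405 FPKM in T-ALL and 482 FPKM in normal (log2 1.54). Its paralog Ly6c1 had 8.58 FPKM in T-ALL and 4.85 FPKM in normal (0.71). The genes share 21.5% of the 50-base windows of Ly6c1 and 13.9% of those of Ly6c2, so part of the reads cannot be assigned. Ly6c2 set the gate apart from the rest of the series, where it reached at most 21.4 FPKM in the other 4 libraries. The most abundant transcripts did not single out macrophages: S100a8, S100a9 and Jchain led in T-ALL, and Cd74, Lyz2 and Tmsb4x, which encodes an actin-binding peptide, led in normal with S100a8 and Jchain at ranks 6 and 7. The cells are therefore called by their gate.

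Adgre1, which encodes F4/80, had 47.3 FPKM in T-ALL and 86.6 FPKM in normal (-0.86). Ptprc, the pan-leukocyte antigen CD45, had 226 FPKM in T-ALL and 424 FPKM in normal (-0.90), and Itgam, the integrin CD11b, had 105 and 160 FPKM in the same order (-0.60). Csf1r, the receptor that sustains monocytes and macrophages, had 333 FPKM in T-ALL and 673 FPKM in normal (-1.01). Of 15 pan-myeloid genes past the filter, 0 were at least 2-fold higher and 6 lower, with a median of -0.73. The number of lower genes ranged from 3 after median-ratio scaling to 10 after quantile normalization. These 6 also included Lyz2, the lysozyme of myeloid cells, with 5901 FPKM in T-ALL and 12010 FPKM in normal, Cd68, a lysosomal glycoprotein of phagocytes, with 185 FPKM in T-ALL and 412 FPKM in normal, and Fcgr3, a low-affinity antibody receptor, with 107 FPKM in T-ALL and 253 FPKM in normal.

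Markers of classical monocytes split in opposite directions. Of 13 members past the filter, 2 were at least 2-fold higher and 4 lower (median -0.22). Ccr2, the receptor for marrow exit, was low where Ly6c2 was high: 37.4 FPKM in T-ALL against 167 FPKM in normal (-2.13). The ratio of Ly6c2 to Ccr2 was therefore 37.5 in T-ALL and 2.88 in normal. Chil3, a chitinase-like secreted protein of monocytes and neutrophils, had 1332 FPKM in T-ALL and 629.7 FPKM in normal (1.08). F13a1, a coagulation factor subunit kept by monocytes, had 12.3 FPKM in T-ALL and 35.6 FPKM in normal (-1.46), and Fn1, fibronectin, had 5.95 FPKM in T-ALL and 14.7 FPKM in normal (-1.18).

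Genes of patrolling monocytes, the Ly6C-low blood monocytes that crawl along vessels, had no member at least 2-fold higher. Of 15, 0 were higher and 4 lower (median -0.62). Cx3cr1, the fractalkine receptor, had 87.9 FPKM in T-ALL and 197.5 FPKM in normal (-1.16). Ace, the angiotensin-converting enzyme, had 109 FPKM in T-ALL and 301 FPKM in normal (-1.46). Nr4a1, the nuclear receptor that these monocytes need, had 237 FPKM in T-ALL and 537 FPKM in normal (-1.17). Nr4a1 is also one of the immediate early genes described below, so its level alone does not mark these monocytes.

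Neutrophil and granule genes had the most abundant transcripts in T-ALL. S100a8, a calcium-binding alarmin, ranked first of all genes there with 21584 FPKM, against 5836 FPKM and rank 6 in normal (1.89). Its partner S100a9 had 10296 FPKM in T-ALL and 2653 FPKM in normal (1.96), and the S100a8 to S100a9 ratio was 2.1 in T-ALL and 2.2 in normal. Of 20 genes of secondary granules and neutrophil maturation, all past the filter, 14 were at least 2-fold higher and 0 lower (median 1.38). The summed level of this list was 8.18% of all FPKM in T-ALL and 2.90% in normal.

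The granule proteins that define late neutrophil precursors were high in both libraries. Ngp, neutrophilic granule protein, had 6045 FPKM in T-ALL and 2436 FPKM in normal (1.31). Camp, the cathelicidin precursor, had 3714 FPKM in T-ALL and 1339 FPKM in normal (1.47), and Ltf, lactoferrin, had 1486 FPKM in T-ALL and 672 FPKM in normal (1.14). Ly6g, the neutrophil surface antigen, a name added after its values were seen, was present at lower levels, with 53.9 FPKM in T-ALL and 19.2 FPKM in normal. Steeper differences were seen for Retnlg, a resistin-like secreted protein, with 234 FPKM in T-ALL and 28.2 FPKM in normal (3.0), and for Mmp8, the neutrophil collagenase, with 56.7 FPKM in T-ALL and 7.75 FPKM in normal (2.72). Lcn2, the iron-siderophore binder lipocalin, had 1768 FPKM in T-ALL and 464.5 FPKM in normal (1.93). The defining markers of neutrophils thus moved with the T-ALL library, and their part in the other results was not tested. In bulk RNA, a change in the number of cells of a type and a change in RNA per cell cannot be told apart.

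Genes of the earlier azurophil granules, which are transcribed in promyelocytes and other myeloid progenitors, were higher as well. Of 17 past the filter (1 of 18 stayed under it), 12 were at least 2-fold higher and 0 lower (median 1.49), or 2 lower with equal FPKM sums. Mpo, myeloperoxidase, had 745 FPKM in T-ALL and 101 FPKM in normal (2.87). Elane, neutrophil elastase, had 495 FPKM in T-ALL and 75.7 FPKM in normal (2.69). Prtn3, proteinase 3, had 199.9 FPKM in T-ALL and 26.6 FPKM in normal (2.86), and Ctsg, cathepsin G, had 211 FPKM in T-ALL and 19.95 FPKM in normal (3.34). These 4 proteases summed to 1652 FPKM in T-ALL and 223 FPKM in normal, 7.4 times as much. Ms4a3, a membrane protein of granulocyte and monocyte progenitors, had 78.2 FPKM in T-ALL and 10.8 FPKM in normal (2.75). Among transcription factors, Cebpe, which drives secondary granule genes, had 55.7 FPKM in T-ALL and 18.4 FPKM in normal (1.55). Myb, a factor of progenitors that passed the filter through T-ALL alone, had 6.31 FPKM in T-ALL and 1.86 FPKM in normal (1.35). Spi1, the PU.1 factor of the whole myeloid lineage, had 408 and 469 FPKM in the same order (-0.20).

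Slpi, an inhibitor of elastase and cathepsin G, had the highest log2 ratio after Tmem254c, 4.45, with 3449 FPKM in T-ALL and 157 FPKM in normal. It ranked 12 of all genes in T-ALL and 491 in normal. Stefin A genes, which encode cysteine protease inhibitors, were at low levels. Stfa1 had 6.97 FPKM in T-ALL and was not listed in normal, and Stfa2l1 had 10.02 FPKM in T-ALL and 1.76 FPKM in normal (2.0). The formyl peptide receptor genes Fpr1 and Fpr2 guide neutrophils to bacterial peptides. Fpr1 had 26.6 FPKM in T-ALL and 10.4 FPKM in normal (1.28), and Fpr2 had 39.75 FPKM in T-ALL and 11.1 FPKM in normal (1.75). Not every neutrophil gene was higher: the named NADPH oxidase subunit genes Cybb (371 FPKM in T-ALL, 502 FPKM in normal) and Ncf1 (134 FPKM in T-ALL, 100.4 FPKM in normal) were within 2-fold.

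**Figure D2:**
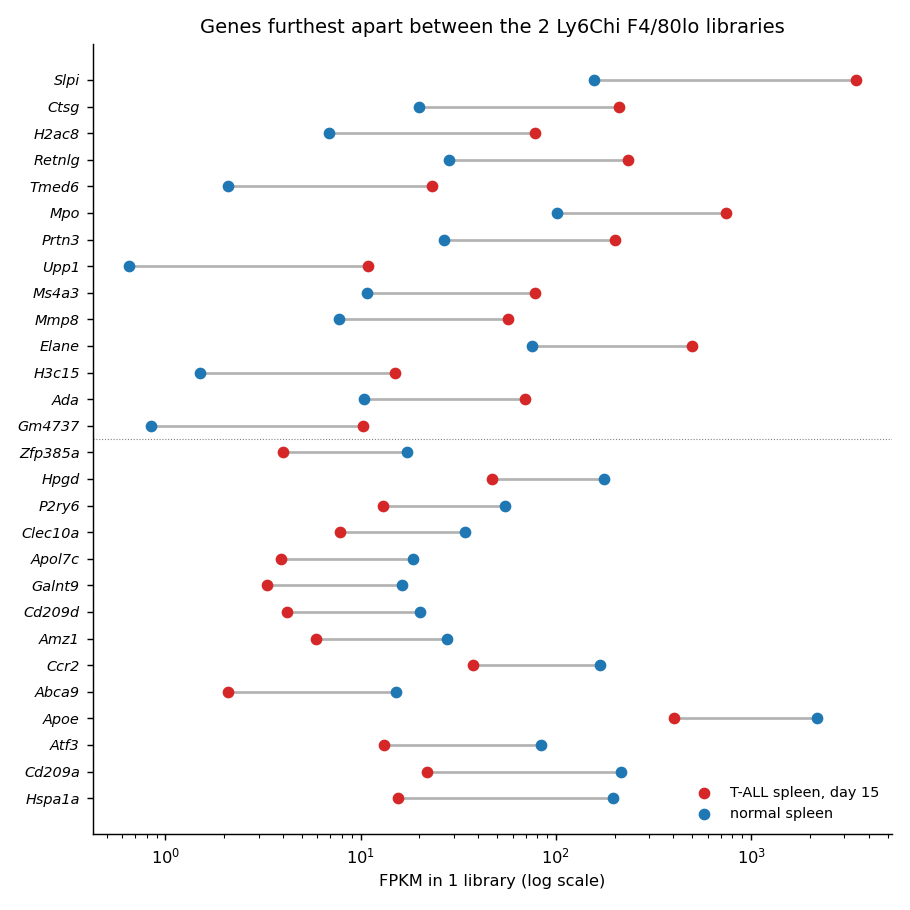
FPKM (log scale) in the T-ALL library (red) and the normal library (blue), 1 library each, of the genes with the highest and lowest log2 ratios among those with at least 10 FPKM in 1 library; Tmem254 copies are left out. Slpi is among those at the top, as are Ctsg, Mpo, Prtn3, Elane, Ms4a3, Mmp8 and Retnlg, genes of granulocytes or their precursors. Hspa1a, Cd209a, Atf3 and Apoe are among those at the bottom.

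The second large block was antibody secretion. Jchain, the joining chain of secreted IgM and IgA, was the third most abundant transcript of the T-ALL library with 10138 FPKM, against 4617 FPKM and rank 7 in normal (1.13). Of 16 plasma cell genes, 13 were at least 2-fold higher and 0 lower (median 1.57), and their sum was 2.95% of all FPKM in T-ALL and 1.29% in normal. Sdc1, the plasma cell surface proteoglycan syndecan-1, had 152 FPKM in T-ALL and 51.8 FPKM in normal (1.53). Mzb1, a chaperone for IgM assembly, had 2557 FPKM in T-ALL and 527 FPKM in normal (2.28), and Fkbp11, a prolyl isomerase of secretory cells, had 222 FPKM in T-ALL and 42.5 FPKM in normal (2.36). Genes of B cells that have not become plasma cells did not follow. Of 17 B cell genes, 2 were at least 2-fold higher and 3 lower (median -0.75), and 7 were lower with equal FPKM sums. Ms4a1, the CD20 antigen, had 121 FPKM in T-ALL and 185 FPKM in normal (-0.61), and Fcer2a, the IgE receptor of mature B cells, had 33.4 FPKM in T-ALL and 111 FPKM in normal (-1.70).

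Endoplasmic reticulum (ER) chaperones, which fold secreted proteins and are induced through Xbp1 and ATF6, were higher as a group. Of 24, 17 were at least 2-fold higher and 0 lower (median 1.21), and their summed level was 12518 FPKM in T-ALL and 4777 FPKM in normal. Hspa5, the luminal chaperone BiP, had 1122 FPKM in T-ALL and 497 FPKM in normal (1.17). Hsp90b1, the chaperone GRP94, had 2134 FPKM in T-ALL and 698 FPKM in normal (1.61). Manf, a secreted ER stress protein, had 362 FPKM in T-ALL and 90.4 FPKM in normal (1.99), and Creld2, another such protein, had 533 FPKM in T-ALL and 138 FPKM in normal (1.94). Genes of the next steps of secretion were higher too. In a list of 44 genes for translocation, glycosylation and export, added after its values were seen, 27 were at least 2-fold higher and 0 lower (median 1.19). The lists overlap: Sec61b is in the chaperone list as well, and Creld2 is in the plasma cell list as well, so their counts are not independent. Sec61b, a subunit of the translocon, had 783 FPKM in T-ALL and 246 FPKM in normal (1.67), and Kdelr1, a receptor that returns ER proteins from the Golgi, had 80.4 FPKM in T-ALL and 19.5 FPKM in normal (1.99). Plasma cells are rich in these transcripts, their defining markers Jchain and Sdc1 were high in the same library, and their part in this result was not tested.

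The promoters of 3 of these chaperone genes are shown because their genes were high together and because they hold the ER stress response element, which ATF6 and NF-Y read. The element was searched, on both strands, as CCAAT and CCACG with 9 bases between, a motif chosen after the values were seen. It is in capitals. Sequences are from RefSeq, build GRCm38.p6, and run from 250 bases before the gene start to 50 after it.
Hspa5 promoter, chr2:34771840-34772139, plus strand: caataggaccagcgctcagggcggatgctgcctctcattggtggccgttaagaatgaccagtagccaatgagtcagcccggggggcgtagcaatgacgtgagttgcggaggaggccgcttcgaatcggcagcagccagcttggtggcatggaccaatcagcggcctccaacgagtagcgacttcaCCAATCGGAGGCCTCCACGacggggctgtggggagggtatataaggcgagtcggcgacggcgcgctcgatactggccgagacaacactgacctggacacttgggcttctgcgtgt
Hsp90b1 promoter, chr10:86705395-86705694, minus strand: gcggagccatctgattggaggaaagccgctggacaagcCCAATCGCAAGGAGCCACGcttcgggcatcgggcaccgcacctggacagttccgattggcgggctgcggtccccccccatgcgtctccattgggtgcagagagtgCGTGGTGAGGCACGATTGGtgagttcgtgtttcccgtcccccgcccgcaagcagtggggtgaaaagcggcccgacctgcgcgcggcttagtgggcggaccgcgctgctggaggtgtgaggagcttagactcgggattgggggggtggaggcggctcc
Creld2 promoter, chr15:88819396-88819695, plus strand: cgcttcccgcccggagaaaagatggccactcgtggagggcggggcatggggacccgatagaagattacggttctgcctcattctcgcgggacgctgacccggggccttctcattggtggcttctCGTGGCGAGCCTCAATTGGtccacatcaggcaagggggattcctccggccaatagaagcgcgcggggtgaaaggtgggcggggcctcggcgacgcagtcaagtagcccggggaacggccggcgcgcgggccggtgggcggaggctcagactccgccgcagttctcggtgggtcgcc

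The element was found in 8 of the 22 chaperone genes with a promoter in the table (36.4%) and in 0.137% of all 27025 genes. Hsp90b1 held it 2 times, and in Hspa5 it began 65 bases before the gene start. The chaperone genes with and without a match had like differences in expression: the median log2 ratio was 1.18 over 8 with it and 1.38 over 14 without it. A match is a string of letters, not a measured binding site.

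Cell division genes were higher almost throughout. Of 35 mitosis genes, 33 were at least 2-fold higher and 0 lower (median 1.73), and of 33 replication genes 24 were higher and 0 lower (median 1.39). Cdk1, the kinase that starts mitosis, had 35.6 FPKM in T-ALL and 5.08 FPKM in normal (2.59). Birc5, which encodes survivin, had 116 FPKM in T-ALL and 19.4 FPKM in normal (2.52), and Ccna2, the cyclin of S and G2 phase, had 63.1 FPKM in T-ALL and 10.8 FPKM in normal (2.45). Mki67, the Ki-67 proliferation antigen, was at 20.5 FPKM in T-ALL and 5.99 FPKM in normal (1.62). For DNA synthesis, Rrm2, a subunit of ribonucleotide reductase, had 141 FPKM in T-ALL and 27.1 FPKM in normal (2.34). Mcm2, a helicase subunit, had 47.9 FPKM in T-ALL and 16.8 FPKM in normal (1.46).

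Histone genes were mostly higher, whereas inhibitors of the cycle were not. Of 13 genes past the filter in the list of replication-dependent histones, 11 were at least 2-fold higher and 0 lower (median 2.21). Among the 11 is H1f0, a linker histone that does not depend on replication, with 89.3 FPKM in T-ALL and 31.9 FPKM in normal (1.46). Of the 22 in the list, 9 stayed under the filter. Some of the 13 passed it through T-ALL alone, such as H4c8, with 8.82 FPKM in T-ALL and not listed in normal. H2ac8 had 77.9 FPKM in T-ALL and 6.87 FPKM in normal (3.33), and H1f4, a linker histone, had 74.3 FPKM in T-ALL and 12.2 FPKM in normal (2.51). Histone genes are close copies of each other, and most of their RNA lacks a poly(A) tail, so their levels depend on the library method. Of 9 inhibitors of the cycle past the filter, 0 were at least 2-fold higher and 2 lower (median -0.23), and 3 had ratios above 0. Of all genes, 7.51% were higher and 4.46% lower. The lower ones were Cdkn1a and Btg1. Cdkn1a, the p21 inhibitor of cyclin-dependent kinases, had 8.03 FPKM in T-ALL and 28.4 FPKM in normal (-1.70), and Btg1, an antiproliferative factor of resting cells, had 30.3 FPKM in T-ALL and 64.0 FPKM in normal (-1.06). Markers of myeloid progenitors and of plasma cells were high in the same library and Cd3e was not, and their part in the cell cycle values was not tested.

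Ribosomal protein genes were higher by small steps. All 53 cytosolic ribosomal protein genes had log2 ratios above 0, from 0.47 to 1.68. Of these, 34 were at least 2-fold higher and 0 lower (median 1.09), but 18 were so when the libraries were scaled to equal FPKM sums and 8 after quantile normalization. Rps12, a small subunit protein, had 356 FPKM in T-ALL and 110.5 FPKM in normal (1.68), and Rpl3, a large subunit protein, had 809.7 FPKM in T-ALL and 438 FPKM in normal (0.89). Ribosomal protein genes have many processed pseudogenes, with which they can share reads. Other growth-related lists had shares near the 7.51% of all genes that were higher. Of genes that build ribosomes, 3 of 28 were at least 2-fold higher and 0 lower (median 0.30). Srm, spermidine synthase, stood out among them with 127 FPKM in T-ALL and 27.7 FPKM in normal (2.16). Mitochondrial ribosomal genes had 2 of 30 higher and 0 lower (median 0.40), and respiratory chain genes 4 of 37 higher and 0 lower (median 0.56), or 2 of 37 after quantile normalization. Glycolysis was mixed, with 3 of 23 higher and 1 lower (median -0.06), and the median was 0.41 with a filter of 20 FPKM. Gapdh, glyceraldehyde-3-phosphate dehydrogenase, had 1199 FPKM in T-ALL and 513.5 FPKM in normal (1.22), whereas Pfkfb4, which makes an activator of phosphofructokinase, had 22.2 FPKM in T-ALL and 49.8 FPKM in normal (-1.13).

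Serine and nucleotide synthesis genes were high beside the cell cycle. Of 21 genes of purine, pyrimidine and one-carbon synthesis, 8 were at least 2-fold higher and 0 lower (median 0.84). Phgdh, the first enzyme of serine synthesis, had 194 FPKM in T-ALL and 49.2 FPKM in normal (1.96), and Psat1, the next enzyme, had 43.9 FPKM in T-ALL and 8.78 FPKM in normal (2.2). Shmt2, which passes the serine carbon to folate in mitochondria, had 90.5 FPKM in T-ALL and 32.1 FPKM in normal (1.47). ATF4 is the transcription factor of amino acid shortage, and serine synthesis genes are among its targets. Of 27 genes in the ATF4 list past the filter, 8 were at least 2-fold higher and 1 lower (median 0.57). These 8 include Phgdh, Psat1 and Shmt2, which are also among the 8 higher synthesis genes. Asns, asparagine synthetase, had 31.8 FPKM in T-ALL and 8.29 FPKM in normal (1.82), and Chac1, which degrades glutathione, had 15.3 FPKM in T-ALL and 5.41 FPKM in normal (1.35). Atf4 itself had 184 FPKM in T-ALL and 113 FPKM in normal (0.70). The list's lower gene was Nupr1, a stress-induced nuclear protein, with 71.7 FPKM in T-ALL and 192 FPKM in normal (-1.41).

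The Asns and Chac1 promoters are shown as a pair of ATF4 targets that were both higher. Capitals mark TGATGNAA, the core of the C/EBP-ATF response element, on either strand, in the same build and window as before.
Asns promoter, chr6:7693160-7693459, minus strand: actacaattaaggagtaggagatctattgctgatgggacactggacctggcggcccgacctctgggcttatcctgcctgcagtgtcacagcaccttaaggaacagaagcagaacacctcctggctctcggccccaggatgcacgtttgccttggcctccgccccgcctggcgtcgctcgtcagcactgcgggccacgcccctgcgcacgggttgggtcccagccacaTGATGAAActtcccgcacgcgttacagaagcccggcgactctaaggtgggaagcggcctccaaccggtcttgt
Chac1 promoter, chr2:119350992-119351291, plus strand: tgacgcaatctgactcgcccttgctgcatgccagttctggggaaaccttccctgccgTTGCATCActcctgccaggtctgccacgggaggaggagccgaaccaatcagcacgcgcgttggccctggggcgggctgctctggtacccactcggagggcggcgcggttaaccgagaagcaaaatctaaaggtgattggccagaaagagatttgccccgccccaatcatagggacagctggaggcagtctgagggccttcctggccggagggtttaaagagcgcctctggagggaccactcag

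This core was found in 10 of 29 list genes with a promoter in the table (34.5%), and in 4.51% of all genes. Among those past the filter, 4 of 7 with the core and 4 of 16 without it were at least 2-fold higher, with medians of 1.03 and 0.49. Nupr1, the lower gene of the list, is among the 7 with the core.

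One stress-induced transcript was among the lowest of all. Hspa1a, the inducible HSP70, had the lowest log2 ratio after Tmem254b, -3.57, with 15.6 FPKM in T-ALL and 196 FPKM in normal. It shares 58.8% of its 50-base windows with Hspa1b, which had 0.61 FPKM in T-ALL and 5.18 FPKM in normal (-1.94), and the pair summed to 16.2 FPKM in T-ALL and 201 FPKM in normal. Other heat shock genes did not follow. None of the 20 past the filter was at least 2-fold higher, Hspa1a and Hspa1b were the 2 lower ones, and the median was 0.09. Hspa1b passed the filter through the normal library alone, and its ratio ran from -2.89 to -0.86 over the alternative settings. The shared windows leave the split between these 2 genes uncertain. Hspa8, the constitutive HSC70, had 1063 FPKM in T-ALL and 1123 FPKM in normal (-0.08). The sign of this list's median changed with the scaling.

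The Hspa1a promoter is shown with the heat shock element core GAANNTTC in capitals, to which heat shock factors bind, because its gene had so low a ratio (same build and window).
Hspa1a promoter, chr17:34972107-34972406, minus strand: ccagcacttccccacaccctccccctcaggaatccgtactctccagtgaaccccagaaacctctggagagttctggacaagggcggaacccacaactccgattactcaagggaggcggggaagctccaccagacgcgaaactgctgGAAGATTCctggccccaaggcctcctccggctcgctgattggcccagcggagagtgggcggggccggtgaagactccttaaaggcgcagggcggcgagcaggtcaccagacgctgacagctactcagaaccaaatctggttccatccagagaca

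The core was found in 10 of 17 heat shock genes with a promoter in the table (58.8%) and in 9.04% of all genes. Of the 9 with the core past the filter, Hspa1a and Hspa1b were at least 2-fold lower and 0 were higher, and the median over the 9 was 0.05.

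Immediate early genes, which answer to activation or to handling of cells within minutes, were lower in part. Of 22 past the filter, 0 were at least 2-fold higher and 8 lower (median -0.71). Atf3, a stress-induced repressor, had 13.2 FPKM in T-ALL and 84.2 FPKM in normal (-2.59), and Dusp1, a phosphatase that stops p38 and JNK, had 136 FPKM in T-ALL and 369 FPKM in normal (-1.43). Junb, an AP-1 subunit, had 202 FPKM in T-ALL and 458.5 FPKM in normal (-1.18). Fos, an AP-1 subunit that handling also induces, was not lower: 545 FPKM in T-ALL and 454 FPKM in normal (0.26). Fosb had 28.7 FPKM in T-ALL and 29.3 FPKM in normal (-0.03). Of 20 feedback inhibitors of MAPK and NF-kB, 2 were at least 2-fold higher and 5 lower (median -0.43), with Dusp6, the ERK phosphatase, at 44.8 FPKM in T-ALL and 135 FPKM in normal (-1.57).

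**Figure D3:**
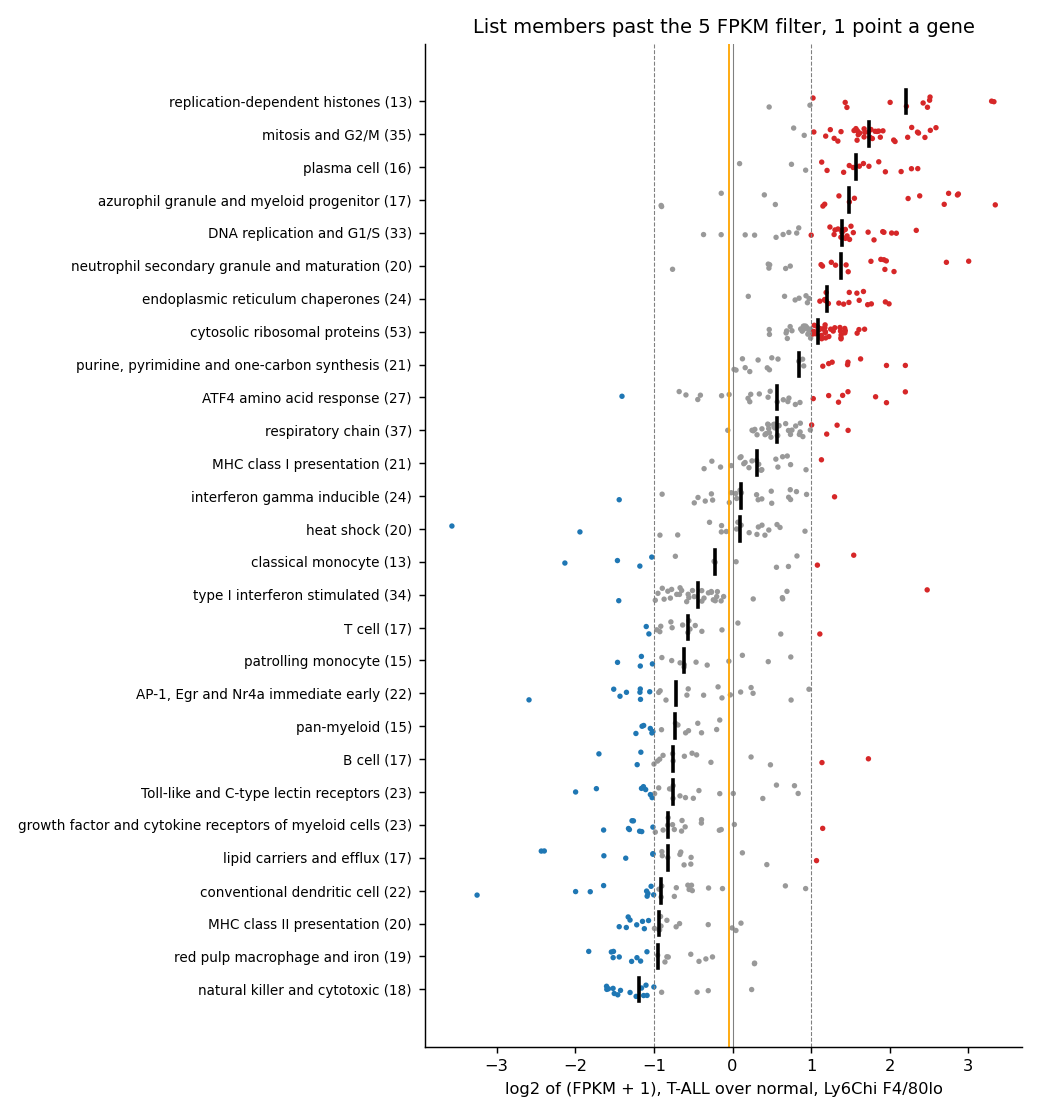
Log2 ratio of FPKM + 1, T-ALL over normal in Ly6Chi F4/80lo cells, for each list member past the 5 FPKM filter (points; number in brackets), with the list median (black bar), 2-fold (dashed) and the median of all genes (orange, -0.05). Red and blue points are at least 2-fold higher and lower; cell cycle, plasma cell, granule and ribosomal lists lie to the right, natural killer, red pulp, class II and dendritic cell lists to the left.

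MHC class II molecules show peptides from taken-up material to CD4 T cells, and class I molecules show peptides of the cell itself. Of 20 class II genes, 0 were at least 2-fold higher and 8 lower (median -0.93), and 14 were lower with equal FPKM sums. Cd74, the invariant chain, had 6288 FPKM in T-ALL and 15521 FPKM in normal (-1.30), the highest level of any gene in the normal library. H2-Ab1, a class II chain, had 1448 FPKM in T-ALL and 3635 FPKM in normal (-1.33), and H2-Aa, its partner chain, had 1281 FPKM in T-ALL and 2788 FPKM in normal (-1.12). Ciita, the master activator of these genes, had 25.3 FPKM in T-ALL and 70.5 FPKM in normal (-1.44). Of 21 class I genes, 1 was at least 2-fold higher (H2-Q7, within 2-fold with equal FPKM sums) and 0 lower (median 0.31). B2m, the class I light chain, had 8687 FPKM in T-ALL and 7315 FPKM in normal (0.25).

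Dendritic cell genes were lower beside class II. Of 22 conventional dendritic cell genes past the filter, 0 were at least 2-fold higher and 9 lower (median -0.90). Cd209a, a lectin of monocyte-derived dendritic cells, had 21.9 FPKM in T-ALL and 217 FPKM in normal (-3.25). Flt3, the growth factor receptor of dendritic cells and their precursors, had 12.4 FPKM in T-ALL and 40.9 FPKM in normal (-1.64), and Batf3, a factor of cross-presenting cells, had 6.35 FPKM in T-ALL and 24.8 FPKM in normal (-1.81). Clec10a, a galactose-binding lectin, had 7.86 FPKM in T-ALL and 34.3 FPKM in normal (-2.0). Xcr1, the defining receptor of cross-presenting cells, was low in both, at 4.43 FPKM in T-ALL and 6.96 FPKM in normal. Among 20 genes of plasmacytoid dendritic cells, 1 was at least 2-fold higher and 1 lower. The higher one was Mzb1, which is in the plasma cell list too, and Siglech, a plasmacytoid lectin, had 30.3 FPKM in T-ALL and 45.2 FPKM in normal (-0.56).

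Lipid carriers included some of the lowest ratios. Of 17 lipid transport genes, 1 was at least 2-fold higher and 6 lower (median -0.82). Apoe, the apolipoprotein of macrophage cholesterol export, had 404 FPKM in T-ALL and 2183 FPKM in normal (-2.43). Abca9, a transporter gene, had 2.09 FPKM in T-ALL and 15.2 FPKM in normal (-2.39), and Msr1, a scavenger receptor for modified lipoprotein, had 8.28 FPKM in T-ALL and 27.8 FPKM in normal (-1.64). Fabp5, a fatty acid binding protein, was the higher one, with 44.1 FPKM in T-ALL and 20.5 FPKM in normal (1.07). Genes of red pulp macrophages, which recycle iron from red cells, were lower too: 0 of 19 past the filter were at least 2-fold higher and 9 lower (median -0.95). Vcam1, an adhesion molecule that marks them, had 25.6 FPKM in T-ALL and 60.7 FPKM in normal (-1.22), and Trf, transferrin, had 53.4 FPKM in T-ALL and 192 FPKM in normal (-1.83). Vcam1 stood at 701 FPKM in T-ALL and 2046 FPKM in normal F4/80hi cells. The list summed to 0.995% of all FPKM in T-ALL and 1.47% in normal Ly6Chi F4/80lo cells, and the part of such cells in this gate was not tested.

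Receptors for growth factors, cytokines and microbes were lower. Of 23 receptor genes for growth factors and cytokines, 1 was at least 2-fold higher and 8 lower (median -0.82). Il10ra, the receptor of interleukin 10, had 80.7 FPKM in T-ALL and 202 FPKM in normal (-1.31), and Ifngr1, the receptor of interferon gamma, had 209.5 FPKM in T-ALL and 477 FPKM in normal (-1.18). Csf2ra, the receptor of GM-CSF, had 95.7 FPKM in T-ALL and 231 FPKM in normal (-1.26). The higher one was Il1r2, the interleukin 1 decoy receptor of neutrophils, with 14.99 FPKM in T-ALL and 6.22 FPKM in normal (1.15). Among 23 Toll-like and C-type lectin receptor genes past the filter, 0 were at least 2-fold higher and 7 lower (median -0.76). Tlr7, the sensor of single-stranded RNA, had 27.6 FPKM in T-ALL and 60.5 FPKM in normal (-1.10), and Clec7a, the beta-glucan receptor, had 44.5 FPKM in T-ALL and 98.8 FPKM in normal (-1.13). Of 11 Fc gamma receptor genes past the filter, 0 were at least 2-fold higher and 3 lower (median -0.60). Fcgr1, the high-affinity receptor, had 6.27 FPKM in T-ALL and 19.6 FPKM in normal (-1.50). Fcgr4, an activating receptor, was within 2-fold on the other side, with 245 FPKM in T-ALL and 138 FPKM in normal (0.83).

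Of 34 type I interferon-stimulated genes past the filter, 1 was at least 2-fold higher and 1 lower (median -0.44). With equal FPKM sums 6 were lower, where 689 of all 8371 genes were. As reported, 29 of the 34 had ratios below 0, beside 4436 of all 8371 genes. Of 24 interferon gamma genes, 1 was higher and 1 lower (median 0.10, a sign that changed with the scaling). The higher type I gene was Ly6a, the Sca-1 antigen of stem cells and activated lymphocytes, with 1525 FPKM in T-ALL and 273 FPKM in normal (2.48). Isg15, a ubiquitin-like interferon product, had 44.4 FPKM in T-ALL and 28.2 FPKM in normal (0.64), and Ifit3, an antiviral RNA-binding protein, had 23.5 FPKM in T-ALL and 47.5 FPKM in normal (-0.98). In the interferon gamma list the lower gene was Ciita and the higher one was Gbp6, a guanylate-binding protein. Gbp6 passed the filter through T-ALL alone, with 7.95 FPKM in T-ALL and 2.64 FPKM in normal (1.30). Igtp, an interferon-induced GTPase, had 71.97 FPKM in T-ALL and 40.5 FPKM in normal (0.81).

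Cytokine genes and suppressive factors were mostly within 2-fold, as were most of all genes (7.51% were at least 2-fold higher and 4.46% lower). Of 14 cytokine and inflammasome genes past the filter, 2 were at least 2-fold higher and 1 lower. Il10, the anti-inflammatory cytokine, had 7.58 FPKM in T-ALL and 0.31 FPKM in normal (2.71). It passed the filter through T-ALL alone, and its ratio ran from 1.24 to 4.23 over the alternative settings of pseudocount, filter and scaling. Il1b, interleukin 1 beta, had 58.7 FPKM in T-ALL and 90.5 FPKM in normal (-0.62), and Il18 had 11.2 FPKM in T-ALL and 23.8 FPKM in normal (-1.02). Among 20 inhibitory receptor and checkpoint genes past the filter, 1 was at least 2-fold higher and 2 lower. Il10 was the higher one there as well, and Cd274, the PD-1 ligand, did not differ by 2-fold, with 32.8 FPKM in T-ALL and 33.8 FPKM in normal (-0.04). Trem2, a lipid-sensing receptor of macrophages, had 3.51 FPKM in T-ALL and 13 FPKM in normal (-1.63). Plasma cells too can make interleukin 10, their markers were high in the same library, and the source was not tested.

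Receptors that guide cells split between Cxcr3 and Ccr2. Of 29 trafficking receptor genes past the filter, 3 were at least 2-fold higher and 6 lower (median -0.53). Cxcr3, the receptor for interferon-induced chemokines on T cells and plasmablasts, had 71.4 FPKM in T-ALL and 16.4 FPKM in normal (2.06). S1pr5, the lipid receptor by which natural killer cells and patrolling monocytes leave tissue, had 50.4 FPKM in T-ALL and 124.5 FPKM in normal (-1.29). Among 10 chemokine genes past the filter, 0 were higher and 3 lower. Ccl6, a myeloid chemokine, had 168 FPKM in T-ALL and 366 FPKM in normal (-1.12), and Ccl5, a chemokine of cytotoxic lymphocytes, had 138 FPKM in T-ALL and 309 FPKM in normal (-1.16).

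Natural killer genes had the lowest median of any list. Of 18 past the filter, 0 were at least 2-fold higher and 14 lower (median -1.19), and the list summed to 0.105% of all FPKM in T-ALL and 0.261% in normal. Ncr1, the activating receptor NKp46, had 14.1 FPKM in T-ALL and 39.6 FPKM in normal (-1.42), and Klrb1c, the NK1.1 antigen, had 11.2 FPKM in T-ALL and 35.4 FPKM in normal (-1.58). Klrk1, the NKG2D receptor, had 14.9 FPKM in T-ALL and 47.2 FPKM in normal (-1.60). T cell genes, which could mark leukemia cells in the gate, were low. Cd3e, a chain of the T cell receptor complex, had 8.36 FPKM in T-ALL and 12.6 FPKM in normal (-0.54), and Lck, its kinase, had 21.7 FPKM in T-ALL and 47.5 FPKM in normal (-1.10). Of 17 T cell genes past the filter, 1 was at least 2-fold higher (Cd28) and 2 lower, and 5 were lower with equal FPKM sums. Notch1, whose activation drives much T-ALL, had 5.60 FPKM in T-ALL and 3.92 FPKM in normal, and 0 of 7 genes of the Notch list were higher and 2 lower.

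**Figure D4:**
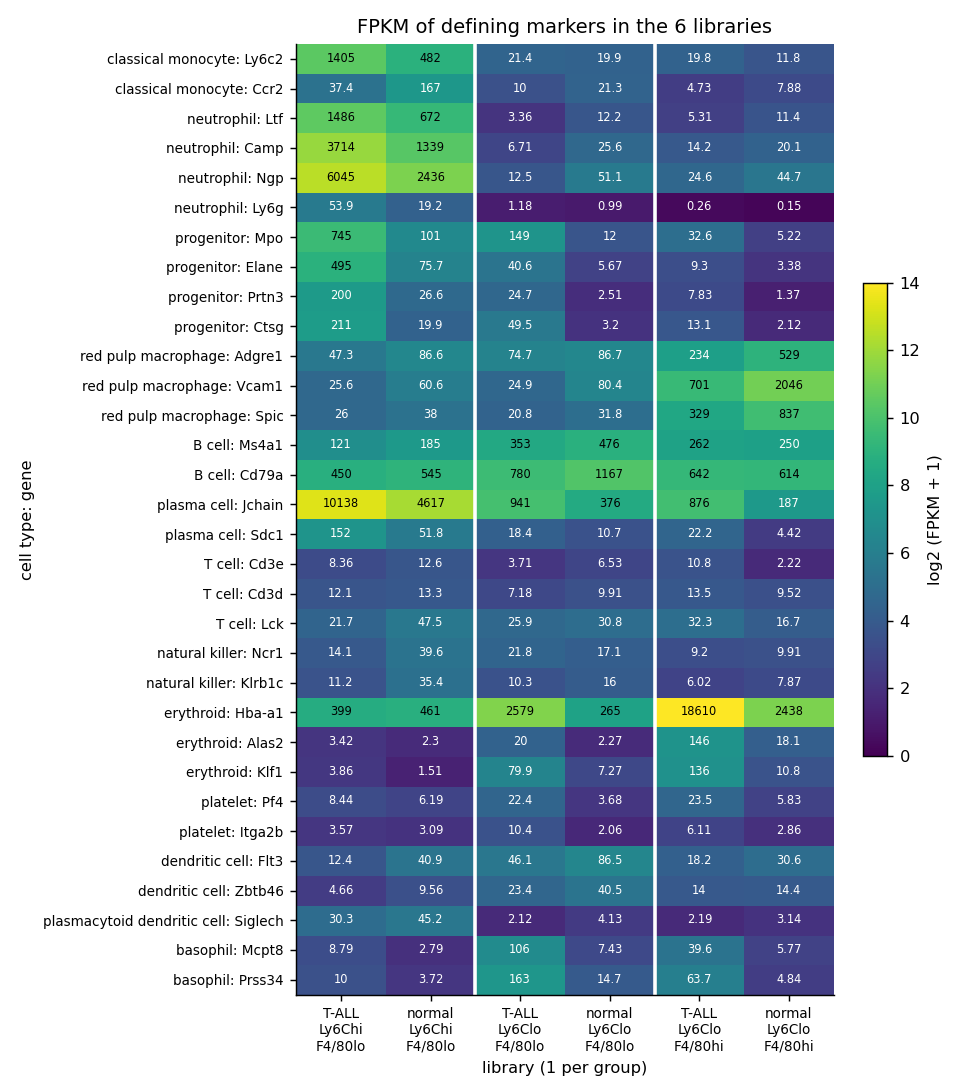
FPKM (printed) and log2 (FPKM + 1) (colour) of defining markers of 13 cell types in the 6 libraries, 1 per group, with T-ALL to the left of normal in each gate. Ly6c2, Ngp, Camp and Jchain are highest in the Ly6Chi F4/80lo pair, Vcam1 and Spic in the F4/80hi pair, and globin Hba-a1 in T-ALL F4/80hi cells.

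Red cell genes, which were high in T-ALL in the other gates, were level here. Hba-a1, an alpha globin gene, had 399 FPKM in T-ALL and 461 FPKM in normal Ly6Chi F4/80lo cells (-0.21), and the 4 globin genes summed to 877 FPKM in T-ALL and 874 FPKM in normal. In Ly6Clo F4/80lo cells the sum was 5121 FPKM in T-ALL and 513 FPKM in normal. The erythroid list had a median of 0.31 here (8 of 24 members past the filter, 1 at least 2-fold higher and 0 lower), against 3.11 and 2.95 for the same members in Ly6Clo F4/80lo and F4/80hi cells. Alpha globin genes share 72.3% of the windows of Hba-a1, so their split is uncertain. Whether the gates differ in this beyond the spread between mice was not tested.

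The T-ALL difference of these cells was set beside that of the other gates, with which it shares no library. At the same thresholds, 499 genes (5.69%) were at least 2-fold higher and 134 (1.53%) lower in Ly6Clo F4/80lo cells, and 959 (10.8%) higher and 583 (6.55%) lower in F4/80hi cells. Of the 629 higher genes, 223 were also higher in Ly6Clo F4/80lo cells (35.5% of the 629 and 44.7% of the 499). The overlap with F4/80hi cells was 340 genes (54.1% of the 629 and 35.5% of the 959). Of the 373 lower genes, 42 were shared with Ly6Clo F4/80lo cells (11.3% of the 373 and 31.3% of the 134) and 105 were shared with F4/80hi cells (28.2% of the 373 and 18% of the 583). In all, 260 higher genes (41.3% of the 629) and 255 lower genes (68.4% of the 373) met the threshold in neither other gate. The FPKM filter was applied in each gate, so genes too low to pass it in another gate count as not shared. These counts therefore do not show responses limited to Ly6Chi F4/80lo cells.

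Mitosis and replication lists had medians above 1 in the 3 gates, and Mpo was higher in each. The mitosis list had medians of 1.73 here, 1.46 in Ly6Clo F4/80lo and 2.27 in F4/80hi cells. Mpo had 149 FPKM in T-ALL and 11.96 FPKM in normal Ly6Clo F4/80lo cells, and 32.6 FPKM in T-ALL and 5.22 FPKM in normal F4/80hi cells. Neutrophil maturation genes were at far lower levels in the other gates, some near 0, so no median is set beside the 1.38 of Ly6Chi F4/80lo cells. S100a8 had 43.5 FPKM in T-ALL and 166 FPKM in normal Ly6Clo F4/80lo cells. Natural killer genes, with -1.19 here, had -0.07 in Ly6Clo F4/80lo and 0.16 in F4/80hi cells. Patrolling monocyte genes had -0.62 here, and 0.48 and 0.41 in the same order. ER chaperones had 1.21 here, 0.55 in Ly6Clo F4/80lo and 0.36 in F4/80hi cells. Each of these contrasts rests on 1 library per group and was not tested.

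**Figure D5:**
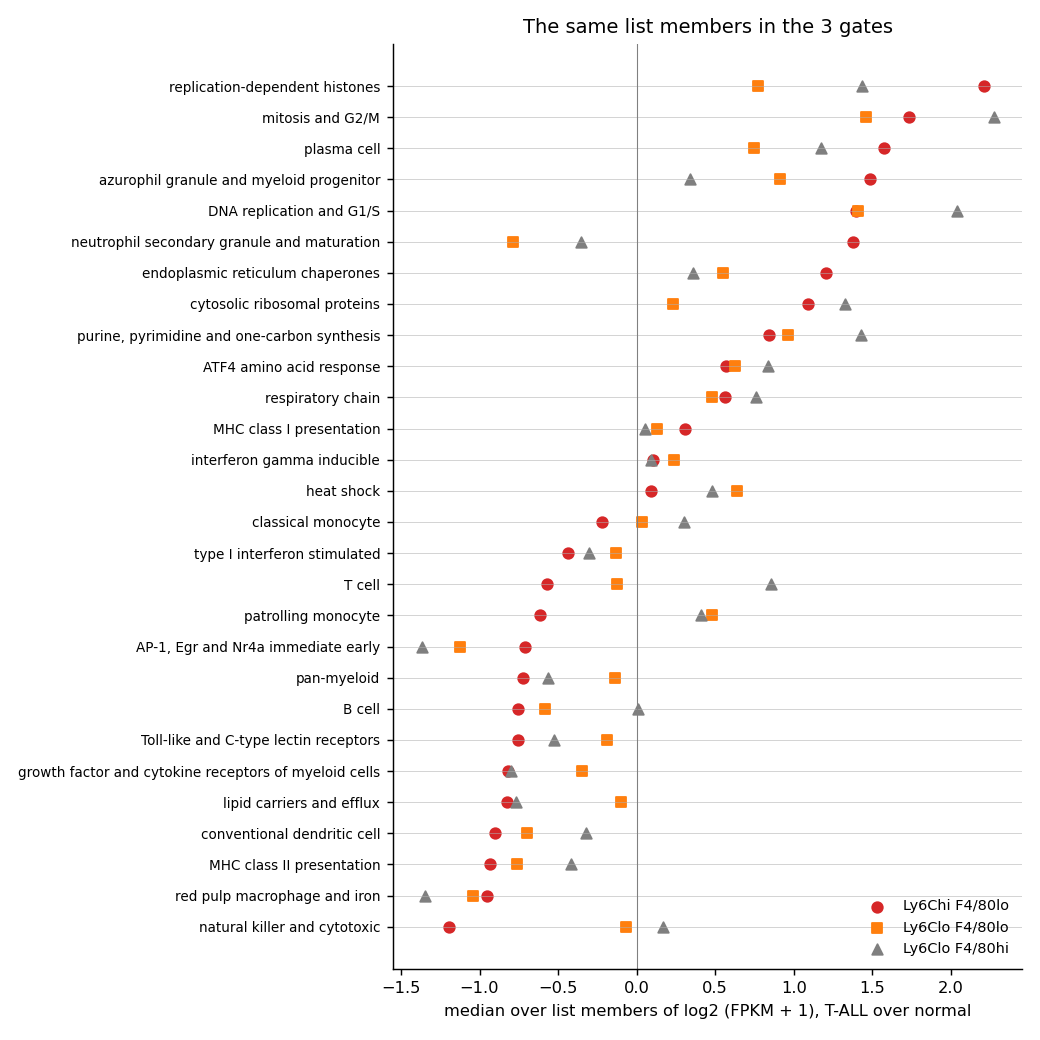
Median log2 ratio of FPKM + 1, T-ALL over normal, of each list in Ly6Chi F4/80lo (circles), Ly6Clo F4/80lo (squares) and Ly6Clo F4/80hi cells (triangles), over the members past the filter in Ly6Chi F4/80lo cells, 1 library per group. Mitosis genes are to the right in the 3 gates (1.73, 1.46 and 2.27), and natural killer genes are at -1.19, -0.07 and 0.16. Neutrophil maturation genes passed the filter in Ly6Chi F4/80lo cells and some are near 0 FPKM in the other gates (Mmp8 had 0.24 FPKM in T-ALL and 0.88 FPKM in normal Ly6Clo F4/80lo cells), so their squares and triangles are not to be read as changes.

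A few values at the extremes rest on read assignment. Tmem254c had 27.0 FPKM in T-ALL and 0.02 FPKM in normal (4.78), whereas Tmem254b was not listed in T-ALL and had 21.7 FPKM in normal. All 50-base windows of both genes occur in another member of the family, and the 3 copies summed to 27.5 FPKM in T-ALL and 23.6 FPKM in normal. The difference of each copy is therefore uncertain.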

How the data were processed

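RNA of 2 sorted Ly6Chi F4/80lo libraries was analysed, with 4 libraries of the other gates for comparison. Per the labels' protocols, total RNA of the sorted cells was purified on QIAGEN columns, and libraries followed an Illumina HiSeq protocol. The authors deposited FPKM per Entrez gene, for which the submitters' processing notes name Bowtie2 2.2.5 and RSEM. Which build, annotation and release of RSEM were used is not given in the sources used here. RSEM divides reads that match several genes among them, so values of near-identical genes are uncertain, and FPKM of a gene also moves with the other genes of its library.

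A RefSeq table (GRCm38.p6) gave symbols to 16017 of the 16058 identifiers. Ratios used a pseudocount of 1 FPKM, a minimum of 5 FPKM in either library, and a 2-fold threshold. No test was run with 1 library per group. Replicates, pooling and batches are not given. Depth came from the spacing of low FPKM of genes with 1 annotated transcript length (GENCODE M21), and the range is over allowances for effective length. Low values lay only partly at whole fragments (mean cosine of the phase 0.403 to 0.568, where 1 is exact), so the depth is approximate. Shared windows are 50-base stretches of GENCODE M21 transcripts. The ratio and the depth estimate were checked on simulated data.

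The experiment, the 51 gene lists and the motifs were chosen with earlier results of these data known, and 1 more list and 1 motif after seeing the values. Of 1139 symbols 1128 were in the files. Named genes were 8 markers of the gate, the 15 highest and 15 lowest ratios among genes of at least 10 FPKM, up to 6 members of each list with the largest ratios and its first 3, and the 15 most abundant genes of each library. Ly6g lies outside this rule, and some named genes are not reported here. Alternatives were 10 settings of pseudocount, filter and scaling. Software was Python 3.11.15, pandas 2.3.3, numpy 2.4.6 and, for plots, matplotlib 3.10.9.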

Additional observations from a re-analysis of the deposited data

Results flagged for a closer look

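Several named genes were at least 2-fold different in Ly6Chi F4/80lo cells and at least 2-fold different in the opposite direction in another gate. Each rests on 1 library per group, and the difference between gates was not tested. All values are log2 ratios of FPKM + 1, T-ALL over normal. Neutrophil genes made up most of them. Retnlg had 3.0 in Ly6Chi F4/80lo cells and -2.26 in Ly6Clo F4/80lo cells, where it stood at 0.80 FPKM in T-ALL and 7.64 FPKM in normal. S100a9 had 1.96 and -2.09 in the same order of gates, S100a8 had 1.89 and -1.91, Ngp had 1.31 and -1.94, and Camp had 1.47 and -1.79. Ltf had 1.14 and -1.59, Lcn2 had 1.93 and -1.54, Chil3 had 1.08 and -1.05, and Il1r2 had 1.15 and -1.04. Levels of Ltf, Lcn2, Chil3 and Il1r2 in Ly6Clo F4/80lo cells were 3.36 to 5.66 FPKM in T-ALL and 11.83 to 13.64 FPKM in normal. At such low levels, their values in that gate are not to be read as changes. Nupr1, a stress-induced nuclear protein, lay the other way, with -1.41 in Ly6Chi F4/80lo cells and 1.08 in Ly6Clo F4/80lo cells.

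Against Ly6Clo F4/80hi cells, Fpr1 had 1.28 in Ly6Chi F4/80lo cells and -1.11 in the F4/80hi gate. Il1r2 had 1.15 and -2.04 in the same order, Fn1 had -1.18 and 1.77, and Nupr1 had -1.41 and 1.04. Il1r2 was low in F4/80hi cells, at 1.55 FPKM in T-ALL and 9.51 FPKM in normal. The levels behind these values differed widely. S100a8 and S100a9 together had 31881 FPKM in T-ALL and 8488 FPKM in normal Ly6Chi F4/80lo cells. In Ly6Clo F4/80lo cells they had 65.4 FPKM in T-ALL and 263 FPKM in normal.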

How the results depend on the processing

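The count of genes at least 2-fold higher kept within 1.5 times of 629 under each of 10 alternative settings, from 420 to 745. The lowest count, with a filter of 20 FPKM, was close to that limit. The count of lower genes did not: against 373, it was 184 with a pseudocount of 5 FPKM, 234 with a filter of 20 FPKM, 689 with both libraries scaled to the same FPKM sum, and 589 when the 50 most abundant genes were left out of the scaling. Under these last scalings the median of all genes was -0.22 and -0.20, against -0.05. No named gene that was at least 2-fold different changed sign in any of these settings. Of the lists, 4 changed the sign of their median: glycolysis (-0.24 to 0.41), heat shock (-0.08 to 0.26), interferon gamma (-0.07 to 0.21) and megakaryocyte genes (-0.04 to 0.57). No paired analysis was possible because each group has 1 library, and for the same reason no replicate could be left out. No immunoglobulin segment was among the genes analysed here, so none could be left out of the scaling. The spread between mice is unknown, and low levels near 5 FPKM carry the counting error given above.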

Other observations

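Further gene groups of Ly6Chi F4/80lo cells are given as values, with 1 library per group and no test. Basophil transcripts were low. Mcpt8, a basophil protease, had 8.79 FPKM in T-ALL and 2.79 FPKM in normal (log2 1.37), and Prss34, another one, had 10.0 FPKM in T-ALL and 3.72 FPKM in normal (1.23). Both passed the filter through the T-ALL library alone, and 8 of the 12 basophil and mast cell genes stayed under it. Megakaryocyte genes had 0 of 3 higher and 0 lower, with Pf4, platelet factor 4, at 8.44 FPKM in T-ALL and 6.19 FPKM in normal (0.39).

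Of 24 genes in the apoptosis list, 2 were at least 2-fold higher and 1 lower (median -0.10), shares near the 7.51% and 4.46% of all genes. Bcl2l11, the death activator BIM, had 44.7 FPKM in T-ALL and 18.1 FPKM in normal (1.26), and Trp53inp1, a p53 target, had 145 FPKM in T-ALL and 50.4 FPKM in normal (1.5). Pmaip1, the death activator NOXA, had 35.0 FPKM in T-ALL and 110.2 FPKM in normal (-1.63). Mcl1, a survival factor of myeloid cells, had 56.4 FPKM in T-ALL and 63.8 FPKM in normal (-0.17).

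Of 34 lysosome genes, 2 were at least 2-fold higher and 2 lower (median -0.27), with 6 lower after quantile normalization. Cd63, a granule and lysosome membrane protein, had 71.2 FPKM in T-ALL and 26.1 FPKM in normal (1.41), and Psap, the precursor of the saposins, had 457 FPKM in T-ALL and 999 FPKM in normal (-1.13). Complement genes had 0 of 11 higher and 2 lower (median -0.63). C1qa, a chain of the initiating complex, had 45.3 FPKM in T-ALL and 78.2 FPKM in normal (-0.77). Cholesterol and fatty acid synthesis had 0 of 20 higher and 1 lower (median -0.38).

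Some of the largest ratios belonged to genes of no list described above. Upp1, which splits uridine, had 10.9 FPKM in T-ALL and 0.65 FPKM in normal (2.85), and Ada, adenosine deaminase, had 69.7 FPKM in T-ALL and 10.4 FPKM in normal (2.63). Tmed6, a protein of vesicle transport, had 23.1 FPKM in T-ALL and 2.09 FPKM in normal (2.96). Hpgd, which inactivates prostaglandins, had 47.2 FPKM in T-ALL and 176 FPKM in normal (-1.88), and P2ry6, a receptor for UDP, had 13.1 FPKM in T-ALL and 55.0 FPKM in normal (-1.99).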
